A study of Mus musculus with 22 samples.

Results

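Ribosomal protein gene promoters were followed through 4 lists of genomic regions at which H3K4me3, a histone mark of active promoters, differed in mouse synovial fibroblasts. A region was a member when the authors' annotation named a gene of the large (Rpl, Rplp) or small (Rps) ribosomal subunit and placed the region in 1 of their 3 promoter classes, which reach 250 bp, 1 kb and 3 kb from the transcription start site (TSS). Of 26201 listed regions, 7770 were promoter regions and 72 were members. They belonged to 44 genes, 28 of the large and 16 of the small subunit, out of 80 protein-coding RefSeq symbols with such a name. The other 36 genes, among them Rpl5, Rpl10, Rps6 and Rps19, had no member region, and since the tables hold differing regions only, the mark at those promoters was not analysed here.

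H3K4me3 was measured by ChIP-seq in synovial fibroblasts, connective-tissue cells that line the joint, grown to passages 4 to 5 from mice of a CBA x C57BL/6J background. Tg197 mice, which become arthritic through a transgene for human TNF, gave cells at ages of 3, 8 and 11 weeks that were set against wild-type (WT) cells of the same age. TNF-treated WT cells of 8 weeks were set against untreated WT cells of 8 weeks, and the dose and duration of that treatment are not given in the sources used here. Each group had 3 libraries, and because nothing says whether they came from separate animals or cultures, p-values measure only the spread between these libraries, which may be technical.

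Ribosomal proteins assemble with ribosomal RNA into the subunits that decode mRNA and join amino acids. Their genes are among the most strongly transcribed in dividing cells. Most of their mRNAs begin with a run of pyrimidines, the terminal oligopyrimidine (TOP) tract, through which mTOR signalling adjusts their translation, and growth signals, MYC among them, raise their transcription.

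The promoters of 6 genes are shown because the results return to them. Rps21, Rpl27 and Rps10 had regions in 3 tables, and Rpl27a had the largest decrease. Rplp2 and Rplp0 belong to the P stalk, whose genes had lower regions at 8 weeks by the authors' adjusted p. So were 77.2% of all listed regions there. They run 5′ to 3′ from 120 bases before to 30 bases after the RefSeq start on GRCm38.p6, a later build than the mm9 of the regions. Capitals mark the longest run of C and T found from 40 bases before to 30 after the start.
Rps21, chr2:180257259-180257408, plus strand: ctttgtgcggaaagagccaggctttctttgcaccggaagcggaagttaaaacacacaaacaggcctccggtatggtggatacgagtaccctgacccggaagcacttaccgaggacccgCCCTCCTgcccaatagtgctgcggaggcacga
Rpl27, chr11:101442125-101442274, plus strand: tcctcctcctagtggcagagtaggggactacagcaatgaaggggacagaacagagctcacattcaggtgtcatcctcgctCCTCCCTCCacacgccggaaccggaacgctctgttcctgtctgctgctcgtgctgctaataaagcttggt
Rps10, chr17:27635215-27635364, minus strand: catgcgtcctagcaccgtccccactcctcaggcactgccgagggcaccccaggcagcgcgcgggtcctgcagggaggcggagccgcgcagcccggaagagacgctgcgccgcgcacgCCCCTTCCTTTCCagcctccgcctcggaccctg
Rpl27a, chr7:109519075-109519224, plus strand: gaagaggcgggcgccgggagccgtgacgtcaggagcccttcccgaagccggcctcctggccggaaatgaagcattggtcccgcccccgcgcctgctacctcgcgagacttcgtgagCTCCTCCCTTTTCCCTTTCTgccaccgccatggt
Rplp2, chr7:141447531-141447680, plus strand: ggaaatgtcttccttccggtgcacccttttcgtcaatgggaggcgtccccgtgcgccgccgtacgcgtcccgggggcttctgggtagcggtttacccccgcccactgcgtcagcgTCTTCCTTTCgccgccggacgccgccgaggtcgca
Rplp0, chr5:115559347-115559496, plus strand: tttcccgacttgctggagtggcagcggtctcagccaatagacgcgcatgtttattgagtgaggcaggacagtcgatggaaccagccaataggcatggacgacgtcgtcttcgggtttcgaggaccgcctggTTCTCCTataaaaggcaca

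Rps10 and Rpl27a had the longest pyrimidine runs of these promoters, 13 and 20 bases across the start, whereas the run of Rpl27 lay wholly before it and that of Rplp0 wholly after it. A RefSeq promoter was held for 31 of the 44 member genes, from 250 bases before to 50 after the start. A run of at least 8 C or T near the start was found in 51.6% of these 31 promoters, against 26.6% of 27025 RefSeq promoters. Read on both strands, the ETS-type word CCGGAAG was in 45.2%, against 9.14% of all, the YY1-type word AAGATGGC in 16.1%, against 2.87%, and the GC box GGGCGG in 64.5%, against 35.9%. The TATA-type word TATAAA, counted at any place in the window, was in 9.68%, against 14.2%. In the printed Rplp0 promoter it lies after the start. The immunoglobulin kappa enhancer type of NF-kB word was in 0.0%, against 0.148%. These words were chosen with the sequences in view and describe letters in a window, not bound factors.

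Recovered reads over the listed regions of a table ranged from 321448 to 2780941 per library. Values are the authors' normalized reads of a region in libraries a, b and c of a group, named by their order in the table, since no replicate number was attached. Positions are those of the middle of a region relative to the TSS, with minus for upstream, and coordinates of regions are on mm9. Log2 changes are limma's, Tg197 over WT or treated over untreated, each with ± its standard error. Regions past the authors' adjusted p of 0.05 are called higher or lower, and "rose" and "fell" are kept for regions past limma's Benjamini-Hochberg adjusted p of 0.05, computed over all listed regions of a table. These same libraries had served to pick the regions, so neither p is independent evidence that they differ. Markers of the labelled cell type were seen only where their promoters differed, with 6, 2 and 4 of 14 synovial fibroblast markers listed at 3, 8 and 11 weeks and 2 in the TNF table, among them Pdgfrb, Pdpn, Thy1 and Vcam1. Of 16 markers of leukocytes, endothelium, epithelium and muscle, at most 1 per cell type was listed at a promoter in any table, except Pecam1 and Tek at 11 weeks.

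By normalized reads, the direction of the difference at ribosomal protein genes went with the place of the region. Counted over the 4 comparisons, 32 member regions were higher in Tg197 or TNF-treated cells, 36 were lower and 4 passed neither way. Of the 32 higher regions 31 had their middle between 250 bp upstream and 2 kb downstream of the TSS, and the exception was an Rps21 region at -2782.5 bp. Of the 36 lower regions 17 lay farther upstream than 250 bp and 10 lay beyond 2 kb downstream. The other 9 had their middle in the same stretch as the 31 higher ones. The authors' enrichment columns, described with the TNF results, gave another split. By them 52 of the 72 regions were higher in Tg197 or treated cells and 20 lower, with 18 of the 36 lower regions turned. By these columns 100% of higher listed promoter regions were also higher in each table. Among lower listed promoter regions the turned share was 9.41%, 29.0% and 0.956% at 3, 8 and 11 weeks and 84.8% with TNF. No total over all listed promoter regions was counted, so the 52 of 72 is not read as particular to the members.

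**Figure D1:**
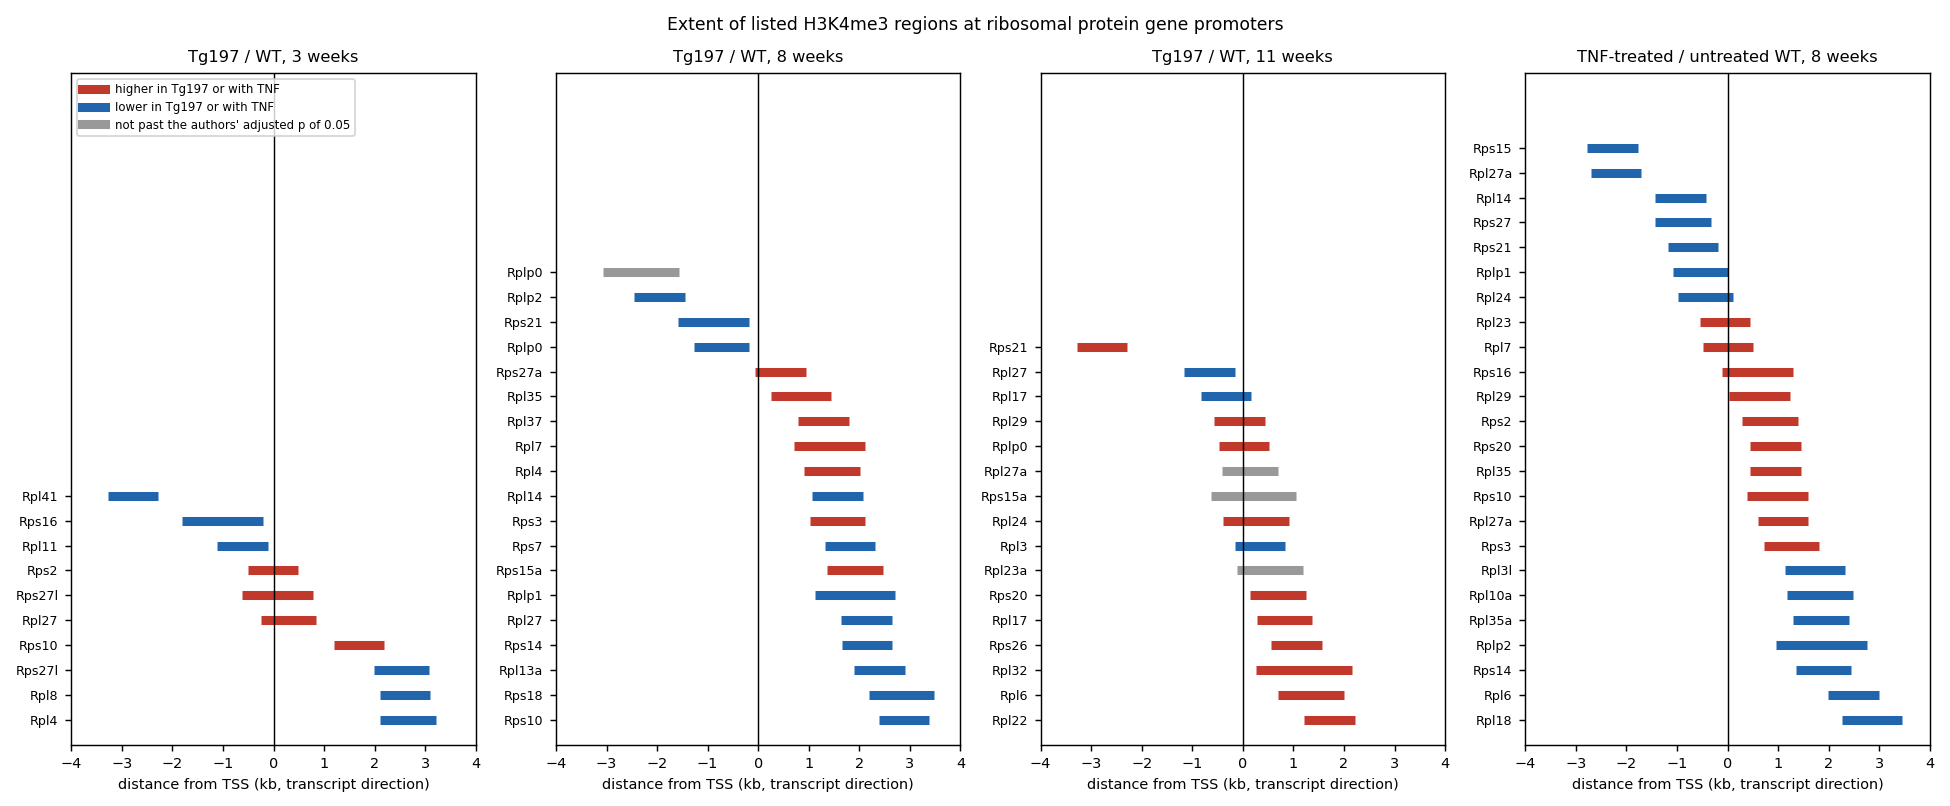
Each bar is 1 of the described member regions drawn to scale along the transcript (x axis, kb from the TSS), in 4 panels for Tg197 over WT at 3, 8 and 11 weeks and TNF-treated over untreated WT cells. Most regions higher in Tg197 or treated cells (red) lie over or just downstream of the TSS. Lower regions (blue) lie mostly upstream or farther downstream. However, 9 of the 36 lower members have their middle between 250 bp upstream and 2 kb downstream, among the red ones. Grey marks the 4 regions past neither way.

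By distance, 1 of 8 regions from 1 to 3 kb upstream was higher and 6 were lower. In the next bin 0 of 11 regions from 250 bp to 1 kb upstream were higher and 11 were lower. Within 250 bp of the TSS 7 of 9 were higher and 0 lower, and from 250 bp to 1 kb downstream 12 of 14 were higher and 1 lower. From 1 to 2 kb downstream 12 of 20 were higher and 8 lower, and from 2 to 3 kb downstream 0 of 10 were higher and 10 lower. In those 6 bins 6.7%, 23.0%, 76.7%, 68.4%, 38.0% and 16.7% of all listed promoter regions were higher. In the same bins 91.8%, 74.6%, 18.3%, 25.8%, 59.2% and 81.6% of them were lower. There too the flanks had the lowest higher shares and the highest lower shares, so the pattern is described here and not called particular to ribosomal protein genes. The 3 week table gave 3002 of the 7770 listed promoter regions but 11 of the 72 members, so the pooled shares weigh the tables differently. The regions of 1 gene share their libraries across bins, and the 8 week and TNF tables share their WT libraries. With direction taken from the enrichment columns, 3 of 8, 6 of 11, 9 of 9, 12 of 14, 17 of 20 and 5 of 10 members were higher in the 6 bins. These counts were not made for all listed promoter regions, so they are not read as particular to the members.

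**Figure D2:**
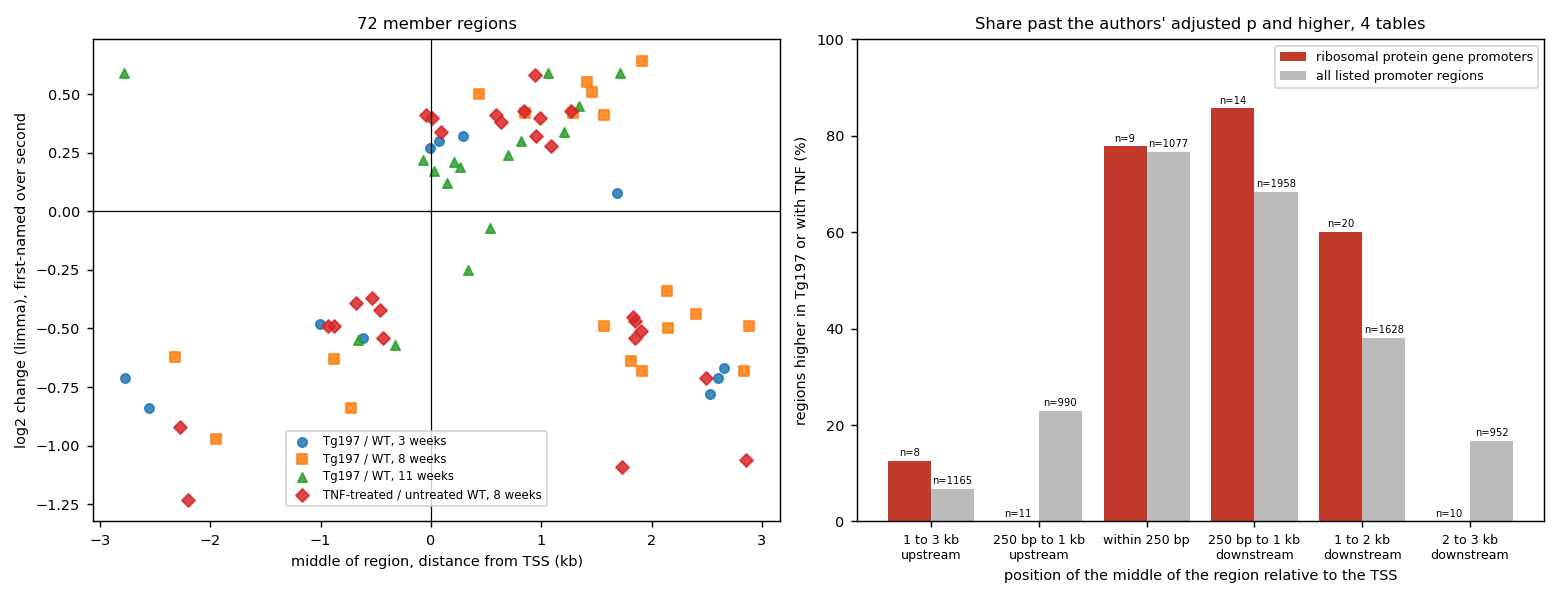
Left, the limma log2 change of normalized reads (Tg197 over WT, or TNF-treated over untreated) against the middle of each of the 72 member regions, in kb from the TSS. Right, the percentage of regions higher in Tg197 or with TNF by position, for member regions (red) and all listed promoter regions (grey), with the number of regions above each bar.

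At 3 weeks the median of the group means was 404 in Tg197 libraries and 322 in WT libraries for the 4 higher members, and 92.5 in Tg197 libraries and 145 in WT libraries for the 7 lower ones. At 8 weeks it was 232.5 in Tg197 and 160.3 in WT libraries for the 7 higher members, and 107.8 in Tg197 and 161.9 in WT libraries for the 11 lower ones, so the WT levels were alike there. At 11 weeks it was 323 in Tg197 and 265 in WT libraries for the 10 higher members, and 125 in Tg197 and 183 in WT libraries for the 3 lower ones. With TNF it was 397 in treated and 298 in untreated libraries for the 11 higher members, and 126 in treated and 193 in untreated libraries for the 15 lower ones.

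At 3 weeks, the early stage in the study's design, 7 member regions fell in Tg197 cells under the authors' scaling, all more than 500 bp from the TSS, and none rose. Of 11 member regions in 10 genes, 4 were higher and 7 lower by the authors' adjusted p, beside 9.71% and 89.5% of all listed regions. By limma 0 rose and 7 fell, beside 4.68% and 88.9%, and the groups did not overlap in 1 region with Tg197 above and 7 with Tg197 below, beside 6.29% and 86.4%. The members' median log2 change was -0.54, the same as that of all listed promoter regions and nearer 0 than the -0.70 of all listed regions. The direction depended on the scaling, since after scaling libraries by their median listed region 2 members rose and 0 fell, beside 6.91% and 0.0441% of the table, and the members' median was 0.12.

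Several large-subunit genes fell far from the TSS. Rpl8, whose protein lies close to the peptidyl transferase centre, had 132, 77.7 and 67.9 normalized reads in Tg197 libraries, against 153, 141 and 142 in WT libraries, at +2600.5 bp (chr15:76736601-76737600). The log2 change was -0.71 ± 0.24 (limma adjusted p = 0.0168). Rpl41, which encodes one of the shortest known proteins, had 116, 52.8 and 99.1 in Tg197 libraries, against 132, 143 and 140.5 in WT libraries at -2777.5 bp. Rpl4, whose protein lines the exit tunnel, had 153, 104 and 74.7 in Tg197 libraries, against 182, 156 and 168 in WT libraries at +2657.5 bp. In each of these the groups were apart, and Tg197 library a was the one nearest to WT.

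Rpl11, whose protein binds 5S RNA and can inhibit the p53 regulator Mdm2, had 112, 91.6 and 109.99 normalized reads in Tg197 libraries, against 135, 159.8 and 163 in WT libraries, at -615.5 bp (chr4:135609401-135610400). All Tg197 values were below the WT values and the log2 change was -0.54 ± 0.18. Rpl27, a large-subunit gene with regions in 3 tables, was higher over its TSS (chr11:101303301-101304400). It had 373, 377 and 358 normalized reads in Tg197 libraries, against 289, 316 and 285 in WT libraries, with no overlap and with values of each group close together. Its log2 change of 0.32 ± 0.16 did not pass limma (adjusted p = 0.075).

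Rps27l, a p53-inducible paralogue of Rps27, had 2 regions in opposite directions. At +76.5 bp it had 437, 568 and 371 normalized reads in Tg197 libraries, against 365, 380 and 357 in WT libraries. At +2526.5 bp it had 109, 77.7 and 61.1 in Tg197 libraries, against 133, 153 and 128 in WT libraries. The groups overlapped at the TSS, where the log2 change was 0.30 ± 0.19, and were apart downstream, where it was -0.78 ± 0.23 and the region fell (adjusted p = 0.0144).

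In the small subunit, Rps16, which reaches the decoding centre, had 201, 205 and 186 normalized reads in Tg197 libraries, against 292, 265 and 269 in WT libraries, at -1006.5 bp. The groups were tight and apart, and the log2 change was -0.48 ± 0.16. Rps2, at the mRNA entry channel, had 496, 550.2 and 269 in Tg197 libraries, against 332, 364 and 346 in WT libraries at -6.5 bp. Rps10, a gene mutated in Diamond-Blackfan anaemia in people, had 265, 287 and 273 in Tg197 libraries, against 248, 256 and 275 in WT libraries at +1685.5 bp. In both genes the groups overlapped, in Rps2 because Tg197 library c was below all WT libraries. For Rps10 the authors' deposited table gives an adjusted p of 2.89e-08, while the limma log2 change of 0.08 ± 0.16 was smaller than its standard error.

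The calls changed with single libraries. Without WT library a, b or c, limma passed 2, 4 and 0 member regions, all lower, beside 58.9%, 57.5% and 0.0% of the table that fell. Without WT library c it passed 0 regions of the whole table, with adjusted p from 0.0646 to 0.0716 for the 7 lower members. Without Tg197 library c, which was the lowest Tg197 library in 3 of the 4 higher members, 3 rose and 6 fell, beside 8.79% and 89.7% of the table, with Rps2 at a log2 change of 0.59.

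At 8 weeks, the established stage, 7 member regions were higher in Tg197 cells, all downstream of the TSS from +438.5 bp to +1909.5 bp, and 11 were lower, including all 3 P stalk genes. The P stalk is the part of the large subunit that recruits translation factors. The 7 and 11 of 19 regions stood beside 20.2% and 77.2% of all listed regions. None passed limma, where 0 regions of the table rose and 0 fell (0.0% each), although the unadjusted p was under 0.05 for 8 members and for 1876 regions of the table. With voom the count was 0 as well. The groups did not overlap in 7 regions with Tg197 above and 4 with Tg197 below, beside 16.9% and 46.3%. The median log2 change was -0.49 for the members, -0.47 for listed promoter regions and -0.86 for all listed regions. With libraries scaled to their median over listed regions 6 members rose and 0 fell, beside 11.6% and 2.6% of the table, and scaled by the listed regions up to 1 kb from a TSS 0 rose and 5 fell, beside 0.411% and 58.7%.

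Rplp0, the scaffold protein of the P stalk, had 2 regions upstream. At -724.5 bp (chr5:116008201-116009300) it had 68.4, 98.4 and 109 normalized reads in Tg197 libraries, against 218, 196 and 98.3 in WT libraries. At -2324.5 bp it had 91.9, 146 and 143 in Tg197 libraries, against 269, 231 and 113 in WT libraries, and this region did not pass the authors' adjusted p (0.183). In both, WT library c lay among the Tg197 libraries while WT a and b were above all of them. Rplp2, an acidic stalk protein, had 62.5, 72.8 and 99.8 in Tg197 libraries, against 177, 174 and 112 in WT libraries at -1947.5 bp (chr7:148631101-148632100). Rplp1, its partner, had 120.2, 143 and 148 in Tg197 libraries, against 256, 249.8 and 164 in WT libraries at +1915.5 bp. For these last genes every Tg197 library was below every WT library, with log2 changes of -0.97 ± 0.31 for Rplp2 and -0.68 ± 0.24 for Rplp1 (limma adjusted p = 0.0725 for each).

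Among the other large-subunit genes 4 regions were higher. Rpl7 had 226, 236 and 238 normalized reads in Tg197 libraries, against 181, 162 and 138 in WT libraries, at +1412.5 bp, a log2 change of 0.55 ± 0.20. Rpl4, lower at its far end at 3 weeks, had 229.8, 209 and 225 in Tg197 libraries, against 140.3, 193 and 137 in WT libraries at +1457.5 bp. Rpl35, whose protein sits at the tunnel exit, had 366, 262 and 265 in Tg197 libraries, against 222, 207 and 229 in WT libraries at +849.5 bp. In these the Tg197 libraries were above all WT libraries, with Tg197 library a far above the others in Rpl35. Rpl37 had 183, 194 and 191 in Tg197 libraries, against 146, 149 and 128 in WT libraries at +1288.5 bp, likewise with the groups apart.

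Lower large-subunit regions were those of Rpl27, Rpl14 and Rpl13a. Rpl27 had 103, 124 and 124 normalized reads in Tg197 libraries, against 213, 195 and 77.5 in WT libraries, at +2142.5 bp. Rpl14 had 86.03, 94.4 and 80.8 in Tg197 libraries, against 168, 157 and 68.9 in WT libraries at +1567.5 bp. In both WT library c was below every Tg197 library and WT a and b were above. Rpl13a, a translational repressor in human monocytes when released from the ribosome, had 141, 136 and 146 in Tg197 libraries, against 269, 159 and 165 in WT libraries at +2403.5 bp. The groups of Rpl13a were apart, with WT a far above the other WT libraries.

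Higher small-subunit regions were led by Rps15a. It had 191, 205 and 183 normalized reads in Tg197 libraries, against 159, 109.97 and 107 in WT libraries, at +1909.5 bp, a log2 change of 0.64 ± 0.24. Rps27a, which is made as a fusion with ubiquitin, had 243, 247 and 238 in Tg197 libraries, against 146, 187 and 184 in WT libraries at +438.5 bp. Rps3, a protein of the mRNA entry channel that is also a known partner of the NF-kB subunit p65, had 262, 235 and 201 in Tg197 libraries, against 169.6, 195 and 159 in WT libraries at +1567.5 bp. All 3 had the groups apart, and Rps27a had the tightest Tg197 values.

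Lower small-subunit regions numbered 5. Rps21 had 158, 169.9 and 181 normalized reads in Tg197 libraries, against 292, 242 and 255 in WT libraries, at -882.5 bp (chr2:179990501-179991900), with the groups apart and a log2 change of -0.63 ± 0.19. Rps18, in the head of the subunit, had 113, 125 and 131 in Tg197 libraries, against 278, 219.9 and 124 in WT libraries at +2834.5 bp. Rps14, whose loss in people contributes to the anaemia of 5q deletion, had 98.3, 112 and 113 in Tg197 libraries, against 165, 189 and 113 in WT libraries at +2151.5 bp. In both WT library c was inside the Tg197 range. Rps7, another Diamond-Blackfan anaemia gene, had 68.9, 83.6 and 83.95 in Tg197 libraries, against 169.6, 148 and 73.9 in WT libraries at +1816.5 bp. Rps10 had 94.05, 95.7 and 104 in Tg197 libraries, against 169.6, 174 and 88.2 in WT libraries at +2885.5 bp, just inside the limit of 3 kb. WT library c was inside the Tg197 range in Rps7 and below it in Rps10.

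The groups overlapped in 7 of the 11 lower regions at 8 weeks, each time through WT library c. It was the lowest WT library in 9 of the 11 lower members and lay within the Tg197 range in 4, with a median of 0.51 of the mean of WT a and b. In listed promoter regions that were lower it was lowest in 85.5%. Its depth was 1.39 reads per normalized read, against 0.684 for WT a and 0.637 for WT b, and the part of depth in these values was not tested. By limma without it 2 member regions rose and 11 fell, beside 11.2% and 76.5% of the table, and Rplp0 at -724.5 bp had a log2 change of -1.19.

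**Figure D3:**
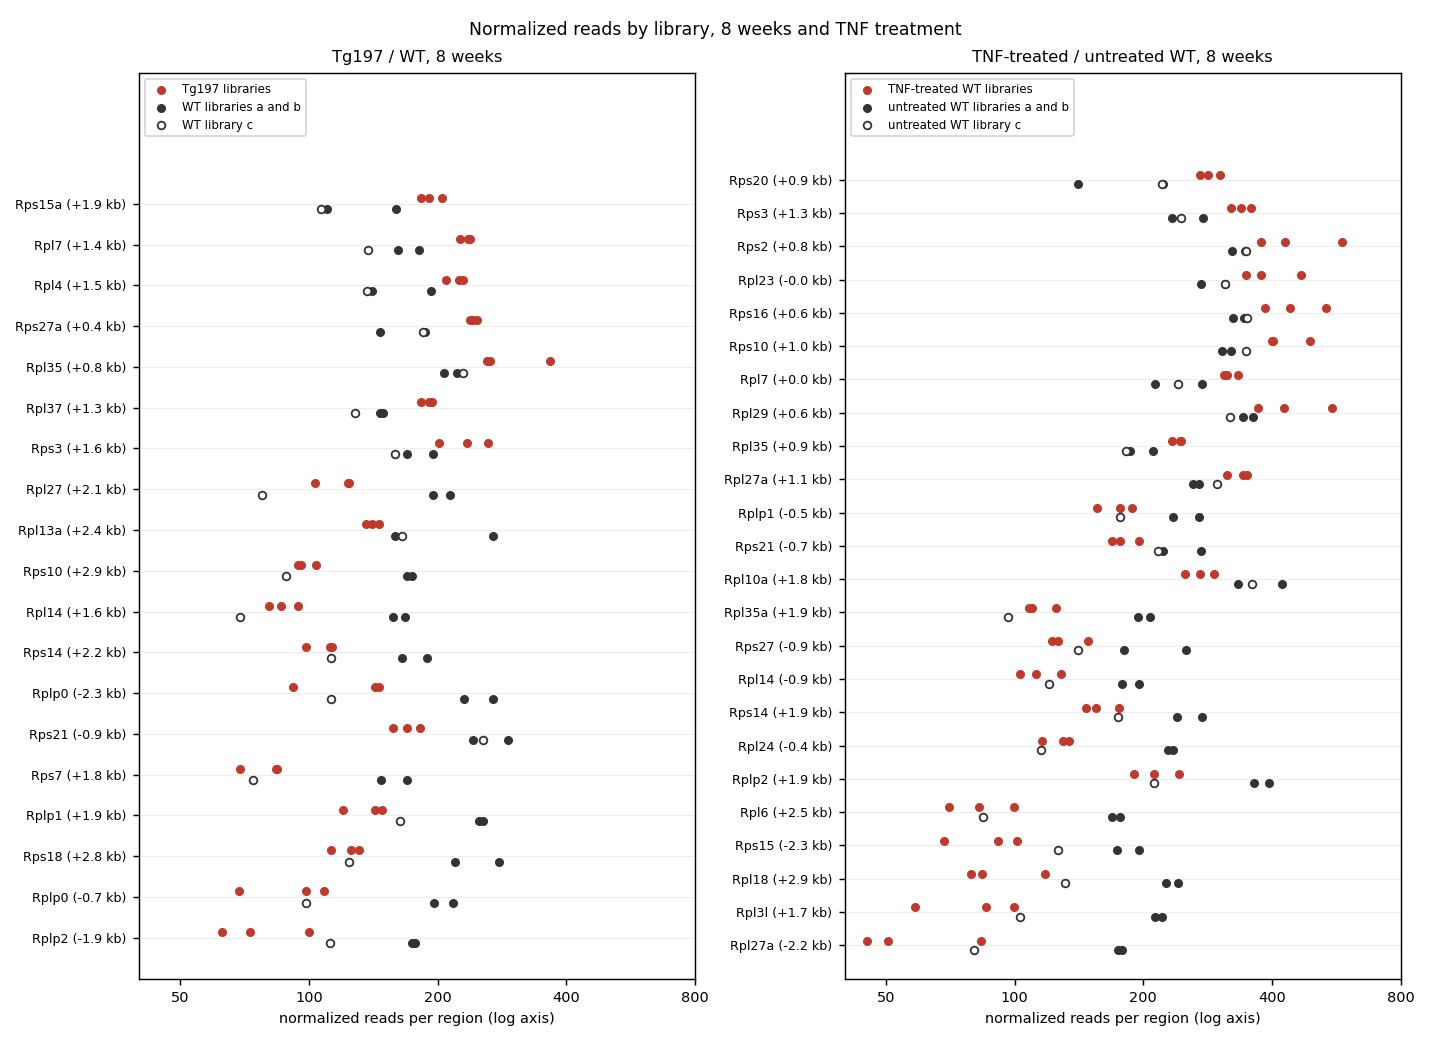
Normalized reads per region in each library (x axis, log scale) for 19 member regions at 8 weeks and 24 in the TNF table, with Tg197 or TNF-treated libraries in red, WT libraries a and b filled black and WT library c open, and the position of each region in kb after the gene name. In most lower regions the open circle lies with the red points and away from the filled black ones.

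At 11 weeks, the late stage, more member regions were higher than lower in Tg197 cells under the authors' scaling. Of 16 member regions in 15 genes, 10 were higher and 3 lower, beside 29.8% and 67.0% of all listed regions. By limma 8 rose and 3 fell, beside 29.6% and 67.7%, and the groups were apart in 10 regions with Tg197 above and 3 with Tg197 below, beside 28.8% and 67.1%. Of listed promoter regions 46.6% were higher and 47.3% lower. The members' median log2 change was 0.21, against 0.09 for listed promoter regions and -0.60 for all listed regions. Of the 16 members 15 lay within 2 kb of the TSS. Without WT library c 6 rose and 2 fell, beside 27.8% and 66.5% of the table. With libraries scaled by the listed regions up to 1 kb from a TSS 5 members rose and 4 fell, beside 22.6% and 68.5%, with a median of 0.07, and scaled to all listed regions 12 rose and 0 fell, beside 31.5% and 10.3%.

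The P stalk scaffold Rplp0 was higher over its TSS. At +25.5 bp (chr5:116009001-116010000) it had 388, 364 and 374 normalized reads in Tg197 libraries, against 336, 346 and 318 in WT libraries. The groups were apart but close, with a log2 change of 0.17 ± 0.08 that did not pass limma (adjusted p = 0.0657).

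The large-subunit genes Rpl22, Rpl6, Rpl32 and Rpl29 rose. Rpl22, whose loss in mice blocks the development of alpha-beta T cells, had 136, 149 and 152 normalized reads in Tg197 libraries, against 107, 102 and 82.01 in WT libraries, at +1714.5 bp (chr4:151701201-151702200). Its log2 change was 0.59 ± 0.15 (adjusted p = 0.00451). Rpl32 had the highest Tg197 or treated mean of all 72 member regions, with 579, 569 and 608 in Tg197 libraries, against 456, 448 and 479.7 in WT libraries at +1209.5 bp, a log2 change of 0.34 ± 0.08. In both genes the groups were well apart. Rpl6 had 291, 243 and 341 in Tg197 libraries, against 219.7, 208 and 209 in WT libraries at +1341.5 bp. Rpl29, known also as a heparin-binding protein, had 291, 293 and 270.4 in Tg197 libraries, against 246, 232 and 255 in WT libraries at -68.5 bp. Tg197 was above WT in both, with Tg197 libraries far apart in Rpl6 and close together in Rpl29.

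Rpl17, whose protein lies at the exit tunnel, changed in opposite directions on the sides of its TSS. At +820.5 bp it had 309, 321 and 440.4 normalized reads in Tg197 libraries, against 286, 277 and 293 in WT libraries, and rose. At -329.5 bp it had 96.4, 144 and 135 in Tg197 libraries, against 182, 179.7 and 188 in WT libraries, and fell. The log2 changes were 0.30 ± 0.12 downstream and -0.57 ± 0.15 upstream, with the groups apart in both regions. Rpl27 fell upstream, at -657.5 bp (chr11:101302401-101303400), with 108, 90.2 and 89.6 in Tg197 libraries, against 152, 133 and 137 in WT libraries. Rpl3, next to the peptidyl transferase centre, had 272, 249 and 254 in Tg197 libraries, against 288, 303 and 336 in WT libraries at +334.5 bp. It was the only lower member region of any table with its middle between 250 bp upstream and 1 kb downstream, and its log2 change was -0.25 ± 0.10 (adjusted p = 0.022).

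The remaining large-subunit regions differed little. Rpl24, a bridge between the subunits that is mutated in the belly spot and tail mouse, had 336, 365 and 361 normalized reads in Tg197 libraries, against 310.2, 328 and 293 in WT libraries, at +263.5 bp. Rpl27a had 415, 399 and 438 in Tg197 libraries, against 411, 385 and 355 in WT libraries at +142.5 bp. Rpl23a, a docking site of the signal recognition particle, had 470.1, 442 and 468 in Tg197 libraries, against 471, 507 and 468 in WT libraries at +534.5 bp. Rpl24 was higher with the groups just apart, and the groups of Rpl27a and Rpl23a overlapped and passed neither test.

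Of the small-subunit genes, Rps26, a Diamond-Blackfan anaemia gene, rose with 245, 249.98 and 250.3 normalized reads in Tg197 libraries, against 172, 126 and 208 in WT libraries, at +1060.5 bp. The Tg197 libraries nearly coincided and the WT libraries were spread below them, and the log2 change was 0.59 ± 0.15 (adjusted p = 0.0047). Rps20, which in human cells is ubiquitinated with Rps10 on collided ribosomes, had 389, 357 and 384 in Tg197 libraries, against 315, 343 and 299 in WT libraries at +695.5 bp. Rps21 had 118, 141 and 93.8 in Tg197 libraries, against 76.2, 81.98 and 73.02 in WT libraries at -2782.5 bp (chr2:179988801-179989800). Both rose with the groups apart, Rps21 by 0.59 ± 0.18 on the log2 scale at the lowest reads of any higher member. Rps15a had 421, 474 and 617 in Tg197 libraries, against 454, 401 and 442 in WT libraries at +209.5 bp, with overlapping groups and Tg197 library c far above the rest.

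**Figure D4:**
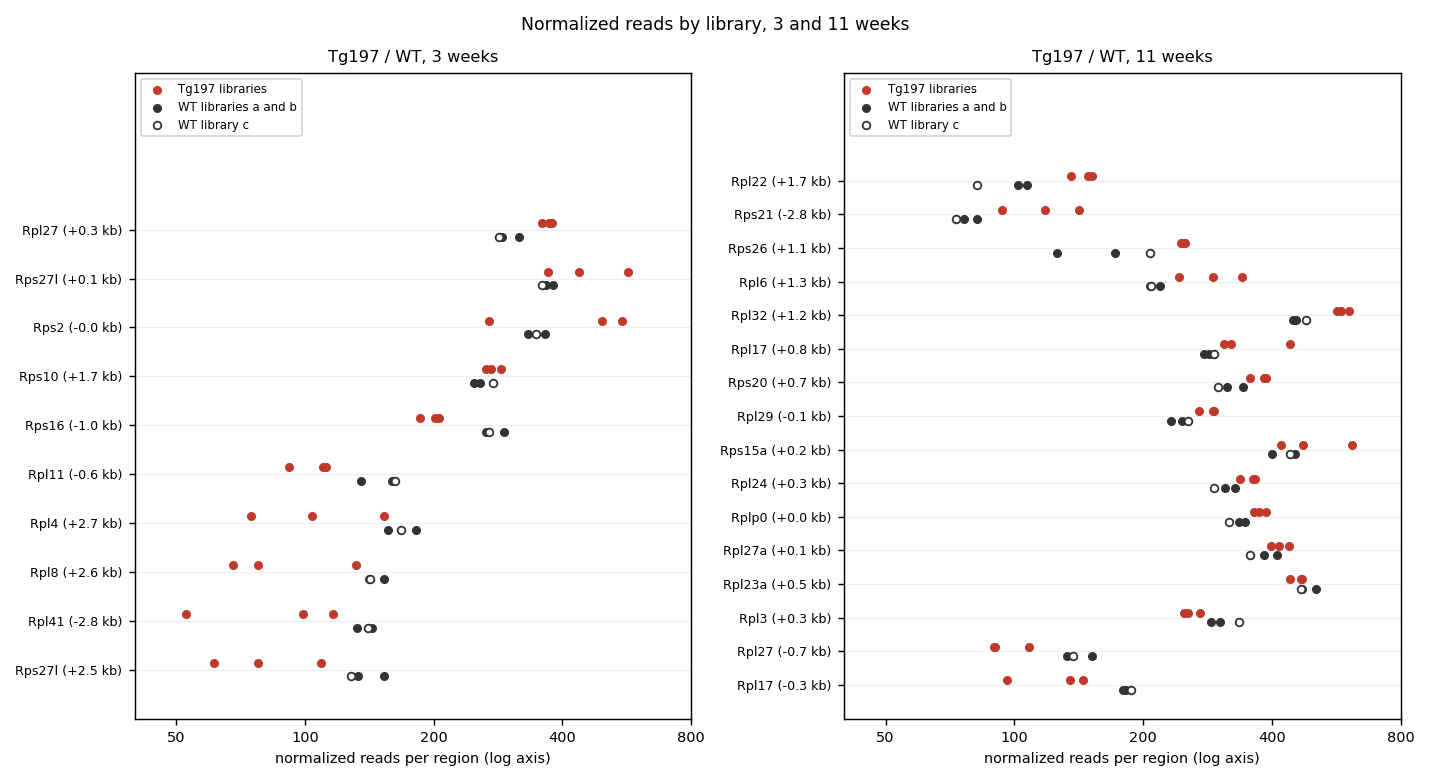
Normalized reads per region in each library (x axis, log scale) for 10 member regions at 3 weeks and 16 at 11 weeks, with Tg197 libraries in red, WT libraries a and b filled black and WT library c open. At 11 weeks the red points lie to the right of the black ones in most regions, and at 3 weeks they lie to the left in 6 of 10.

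The TNF comparison set WT cells given the cytokine against WT cells without it. It listed 26 member regions in 25 genes, among 1827 listed promoter regions. At 3, 8 and 11 weeks there were 11, 19 and 16 member regions, among 3002, 1170 and 1771 promoter regions. Of the 26 members 11 were higher and 15 lower with TNF, beside 24.6% and 72.3% of all listed regions. By limma 7 rose and 4 fell, beside 16.5% and 42.6%, and the groups were apart in 11 regions with treated cells above and 5 with treated cells below, beside 22.4% and 51.8%. Without limma's variance trend 0 member regions and 0 regions of the table passed, with 2175 regions at an unadjusted p under 0.05. Scaled to all listed regions 11 members rose and 1 fell, beside 25.0% and 8.37% of the table, and scaled to those within 1 kb of a TSS 1 rose and 9 fell, beside 7.17% and 63.1%. All 11 higher regions had their middle between -48.5 bp and +1267.5 bp. The members' median log2 change was -0.41, the same as that of listed promoter regions, against -0.58 for all listed regions. The untreated libraries are the WT libraries of the 8 week comparison, so the results of these tables are not independent.

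Of the P stalk genes, Rplp2 had 242, 189.96 and 212 normalized reads in treated libraries, against 393, 362 and 212 in untreated libraries, at +1852.5 bp. Rplp1 had 188, 155 and 177 in treated libraries, against 235, 270.3 and 177 in untreated libraries at -534.5 bp. Both were lower by the authors' adjusted p and neither passed limma, and in both untreated library c lay inside the treated range.

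Large-subunit genes higher with TNF were Rpl23, Rpl7, Rpl29, Rpl35 and Rpl27a. Rpl23, a protein that can bind Mdm2, had 347, 468 and 377 normalized reads in treated libraries, against 273, 311 and 309.9 in untreated libraries, at -48.5 bp (chr11:97643301-97644300). Its log2 change was 0.41 ± 0.14 (adjusted p = 0.0463). Rpl7 had 315, 332 and 309.8 in treated libraries, against 275, 213 and 241 in untreated libraries at +12.5 bp. Both rose and had the groups apart, with treated library b highest in each. Rpl29 had 371, 554 and 426 in treated libraries, against 341, 360.4 and 319.6 in untreated libraries at +631.5 bp. Rpl35 had 233, 245 and 243 in treated libraries, against 211, 186 and 183 in untreated libraries at +949.5 bp. Rpl27a had 315, 343 and 349.96 in treated libraries, against 269, 261 and 297 in untreated libraries at +1092.5 bp. Treated libraries were above untreated ones in these 3 genes too, which missed the limma threshold with adjusted p of 0.0556 for Rpl29, 0.0607 for Rpl35 and 0.0575 for Rpl27a.

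Rpl27a also had the largest decrease of any member, upstream at -2207.5 bp (chr7:116660001-116661000). It had 83.2, 50.5 and 45.1 normalized reads in treated libraries, against 178, 175 and 80.3 in untreated libraries there. Its log2 change was -1.23 ± 0.50, but untreated library c lay below treated library a and the region did not pass limma (adjusted p = 0.0541).

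The large-subunit regions that fell were those of Rpl18, Rpl10a and the paralogue Rpl3l. Rpl18 had 118, 79.2 and 83.6 normalized reads in treated libraries, against 227, 241 and 131 in untreated libraries, at +2860.5 bp (chr7:52975701-52976900). Rpl10a, which forms the stalk by which spent tRNA leaves, had 271, 251 and 293 in treated libraries, against 422, 333 and 360.2 in untreated libraries at +1835.5 bp. Rpl3l, the striated-muscle paralogue of Rpl3, had 99.5, 58.5 and 85.8 in treated libraries, against 221, 213 and 103 in untreated libraries at +1727.5 bp. The groups were apart in each, and the log2 changes were -1.06 ± 0.31 for Rpl18, -0.45 ± 0.14 for Rpl10a and -1.09 ± 0.39 for Rpl3l.

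Other lower large-subunit regions had overlapping groups. Rpl6 had 99.5, 70.1 and 82.5 normalized reads in treated libraries, against 177, 169 and 84.4 in untreated libraries, at +2491.5 bp. Rpl24 had 134, 129.7 and 116 in treated libraries, against 235, 228 and 115 in untreated libraries at -436.5 bp. In both untreated library c was level with the treated libraries and a and b were well above. Rpl14 had 128, 103 and 112 in treated libraries, against 178, 195 and 120.1 in untreated libraries at -932.5 bp. Rpl35a, a Diamond-Blackfan anaemia gene, had 125, 108 and 109.5 in treated libraries, against 194, 208 and 96.5 in untreated libraries at +1851.5 bp. The same split of the untreated libraries was seen, with library c below all treated libraries in Rpl35a.

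Several of the regions that rose belonged to small-subunit genes. Rps20 had 302, 272 and 284 normalized reads in treated libraries, against 141, 223 and 221 in untreated libraries, at +945.5 bp (chr4:3761301-3762300), a log2 change of 0.58 ± 0.19 (adjusted p = 0.046). Rps3 had 358, 338 and 321 in treated libraries, against 233, 276 and 245 in untreated libraries at +1267.5 bp. Rps10 had 402, 491 and 400.03 in treated libraries, against 321, 305 and 347 in untreated libraries at +985.5 bp. Each of these rose with the treated libraries above every untreated one. Rps16 had 385, 535 and 441 in treated libraries, against 345, 324 and 349 in untreated libraries at +593.5 bp. Rps2 had 376, 583 and 429 in treated libraries, against 347, 322 and 348 in untreated libraries at +843.5 bp. Rps16 rose with the groups apart, and Rps2, with treated library b far above the others, did not pass limma (adjusted p = 0.0505).

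Lower small-subunit regions were led by Rps15, in the head of the subunit. It fell with 101, 68.3 and 91.3 normalized reads in treated libraries, against 173, 195 and 127 in untreated libraries, at -2274.5 bp, a log2 change of -0.92 ± 0.31 and the groups apart. Rps21 had 195, 169 and 176 in treated libraries, against 273, 223 and 217 in untreated libraries at -682.5 bp, also with the groups apart (limma adjusted p = 0.0525). Rps14 had 175, 155 and 147 in treated libraries, against 240.2, 274 and 174 in untreated libraries at +1901.5 bp. Rps27 had 148, 122 and 126 in treated libraries, against 180.2, 252 and 140.3 in untreated libraries at -882.5 bp. In Rps14 and Rps27 untreated library c lay inside the treated range.

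Untreated library c was the lowest untreated library in 14 of the 15 lower members and lay within the treated range in 8, at a median of 0.62 of the mean of libraries a and b. Among lower listed promoter regions it was lowest in 83.1%. By limma without it 8 member regions rose and 15 fell, beside 21.4% and 68.4% of the table. Without treated library b or c, or untreated library a or b, limma passed 0 member regions and 0 regions of the table, with between 1125 and 1234 regions at an unadjusted p under 0.05.

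The authors' enrichment columns, whose definition and scaling are not given in the sources used here, differed in direction from the normalized reads at many of the lower members. With TNF 12 of the 15 lower members had a higher enrichment value in treated than in untreated cells, with a median ratio of 1.51, as did 84.8% of lower listed promoter regions. Rplp1 at -534.5 bp, for example, had an enrichment of 6.99 in treated cells, against 4.27 in untreated cells. The count was 5 of 11 lower members at 8 weeks, 1 of 7 at 3 weeks and 0 of 3 at 11 weeks. Among lower listed promoter regions the shares at these ages were 29.0%, 9.41% and 0.956%. Every higher member, 32 in all, had a higher enrichment value in Tg197 or treated cells. The members' median ratios were 1.87, 2.09 and 1.33 at 3, 8 and 11 weeks and 2.81 with TNF. The same held for 100% of higher listed promoter regions, with median ratios of 2.04, 2.1, 1.48 and 2.84 in that order. For most lower members with TNF the direction thus depends on which of the authors' measures is read, and why they differ was not tested.

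**Figure D5:**
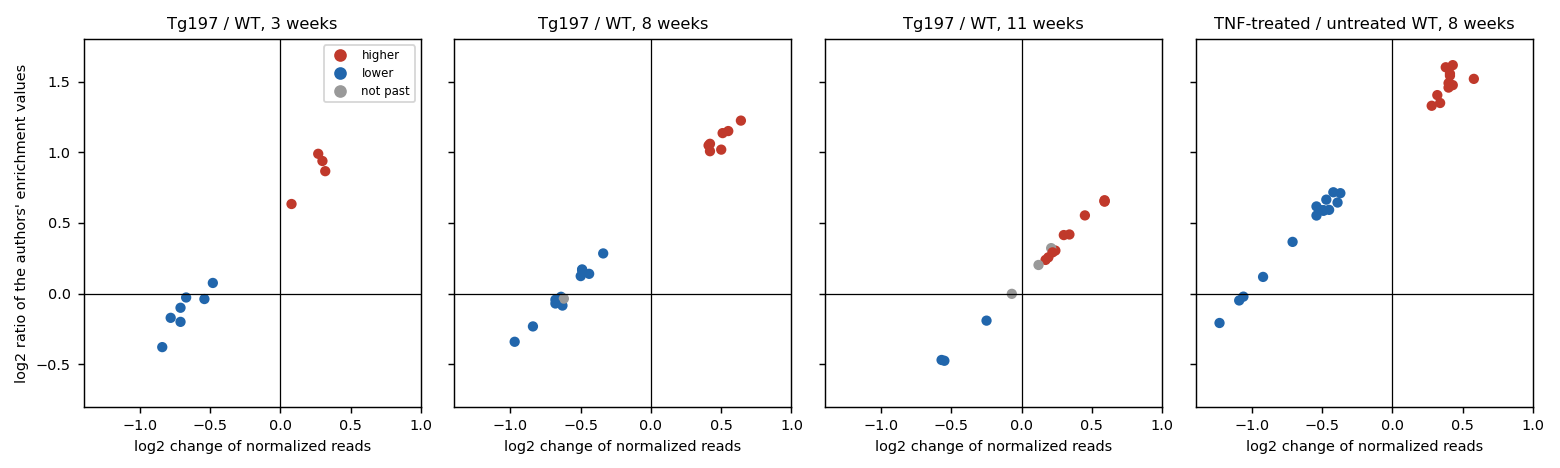
For each member region, the log2 ratio of the authors' enrichment values (y axis, Tg197 over WT or TNF-treated over untreated) against the log2 change of normalized reads (x axis), with regions higher (red), lower (blue) or past neither way (grey) by the authors' adjusted p. In the TNF panel 12 of the 15 blue points lie above 0 on the y axis and to the left of 0 on the x axis.

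Of the 44 genes 23 had member regions in 1 table, 18 in 2 and 3 in 3 (Rpl27, Rps10 and Rps21). The regions of 1 gene in different tables mostly covered different sequence, since 12 of 29 such pairs overlapped. Of the 12 overlapping pairs 9 had the same sign of the authors' log2 change, whether or not the regions were called. Among them were Rps20 at 11 weeks and with TNF, which share 800 bp, and Rpl29 in the same tables, which share 400 bp. The 9 also include Rpl27a at 11 weeks (0.12), which passed neither test, and Rps10 at 3 weeks (0.08), where the groups overlapped. Such pairs were not counted over all listed regions, so the 9 of 12 is not read as particular to these genes. Rps21 upstream and Rps3, Rps14 and Rpl35 downstream were listed in the same place and direction at 8 weeks and with TNF, comparisons that share their WT libraries. The 3 opposite pairs were Rpl24 (11 weeks and TNF, 500 bp shared), Rpl27 (3 and 11 weeks, 100 bp) and Rplp0 (8 and 11 weeks, 300 bp), and in each the higher region reached over the TSS and the lower one lay mainly upstream. Rps21, whose promoter is printed above, was lower at -882.5 bp at 8 weeks and at -682.5 bp with TNF and higher at -2782.5 bp at 11 weeks.

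At the edge of the 3 kb limit, Rps10 at +2885.5 bp (8 weeks) and Rpl18 at +2860.5 bp (TNF) were just inside. Outside it were gene-body regions of Rpl3l at +3227.5 bp (TNF), Rplp2 at +3902.5 bp (3 weeks), Rpl23 at +4501.5 bp (8 weeks) and Rpl3 at +6284.5 bp (TNF). All 4 were lower, with log2 changes from -1.38 for Rpl3l to -0.57 for Rpl23.

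Other genes of protein synthesis gave further counts. At 3, 8 and 11 weeks 39.7%, 44.4% and 46.6% of all listed promoter regions were higher, and 58.8%, 51.9% and 47.3% lower. With TNF 38.9% were higher and 57.1% lower. Of 6 cytosolic ribosomal protein genes that the name rule leaves out, Rpsa, which also encodes a laminin receptor, was listed once and rose at 3 weeks, with 226.8 ± 1.1 normalized reads in Tg197 and 160.6 ± 22.1 in WT libraries (SD, n = 3) at +1767.5 bp. Mitochondrial ribosomal protein genes (78 symbols) had 6 higher and 12 lower promoter regions at 3 weeks, 3 and 2 at 8 weeks, 7 and 1 at 11 weeks, and 6 and 4 with TNF. By limma 8 regions of these genes rose and 1 fell at 11 weeks, beside 802 and 828 of 1771 listed promoter regions. Mrpl37 was among the 8 that rose, with 397.0 ± 33.9 in Tg197 and 278.4 ± 17.3 in WT libraries. Mrpl54 was another, with 210.7 ± 24.8 in Tg197 and 135.8 ± 20.7 in WT libraries.

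Genes of ribosome assembly and rRNA synthesis (59 symbols) had 2 higher and 4 lower regions at 3 weeks, 5 and 1 at 8 weeks, 5 and 4 at 11 weeks, and 7 and 0 with TNF. With TNF 3 of these rose by limma, beside 476 of 1827 listed promoter regions. Ebna1bp2, an assembly factor of the large subunit, had 390.0 ± 23.5 in treated and 280.1 ± 41.3 in untreated libraries. Sbds, which releases eIF6 from the large subunit, had 297.0 ± 39.0 in treated and 224.6 ± 15.7 in untreated libraries. Rrs1, needed for 5S RNA incorporation, had 194.4 ± 29.0 in treated and 130.9 ± 13.0 in untreated libraries at +1862.5 bp. Fibrillarin, the methyltransferase of rRNA encoded by Fbl, had at 11 weeks a lower region at -565.5 bp and a region at +1234.5 bp that rose, with 166.1 ± 2.2 in Tg197 and 119.8 ± 5.6 in WT libraries.

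Translation initiation and elongation factors (70 symbols, a pattern that also takes in kinases of eIF2 and an argonaute gene) had 8 higher and 11 lower regions at 3 weeks, 3 and 3 at 8 weeks, 5 and 4 at 11 weeks, and 4 and 4 with TNF. With TNF Eif3e, a subunit of initiation factor eIF3, rose, with 313.1 ± 12.7 in treated and 217.8 ± 60.8 in untreated libraries. Snhg3, which hosts small nucleolar RNAs, fell at 3 weeks at -600.5 bp and was higher at 8 weeks at +199.5 bp, while Gas5, a host gene with a TOP tract, rose at 11 weeks with 287.1 ± 17.8 in Tg197 and 245.8 ± 5.6 in WT libraries. None of these lists was tested against other genes, and their regions were not matched to others by distance from the TSS.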

How the data were processed

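The data were 4 tables of H3K4me3 regions on mm9 that the authors listed as differing, with a best-window p of at most 0.0001. Per the file headers, each region has 3 normalized counts per group in 1 cell, a value of every library scaled by the authors in a way the sources used here do not give. The deposited averages, a signal, are the means of such triplets. Enrichment columns of the authors were read as a ratio, since the headers give no definition. The deposited log2 fold columns have the treatment on top, the p-value columns come from the authors' test of each region and of its best window, and a deposited score column gives the signed distance of a region's middle from the TSS. The submitters' processing notes name mm9, BWA and other tools without versions or roles. No column of per-sample values was left unmapped.

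WT was taken as the control, since in the 8 week and TNF tables the control libraries had equal reads in all 54 regions with identical coordinates, and untreated WT cells of 8 weeks belong to both. Within 0.02 normalized reads, each library's values were multiples of what 1 read is worth, so whole reads were recovered for depth and for voom. The deposited cells hold scaled values joined in text. The planned count test was not run, although whole reads had been recovered. Instead limma 3.58.1 in R 4.3.3 was run with Benjamini-Hochberg adjustment over all listed regions of a table. The fit used a variance trend on log2(normalized reads + 0.5). A fold on this scale understates changes of low regions. The limma step was tested on simulated data. Most simulated regions were unchanged, with equal numbers raised and lowered, unlike these lists of differing regions. The simulation therefore cannot say how reliable the calls are.

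Members follow the naming rule given with the results. The members and the gene lists were chosen with earlier results of these data known. Some members are counted but not reported here by name or drawn by name. For the others, values of every library are given for member regions past either adjusted p of 0.05 at 8 weeks, 11 weeks or with TNF, for those at 3 weeks with the largest changes or higher in Tg197, and for genes in several tables. Alternatives were another pseudocount, no trend, 2 other scalings, a filter, voom, promoter regions alone, the proximal class alone, a stricter authors' threshold and each library left out.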

Additional observations from a re-analysis of the deposited data

Results flagged for a closer look

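Rpl27 stood out because at overlapping places every Tg197 library was above every WT library at 3 weeks and below every WT library at 11 weeks. At 3 weeks the region at +292.5 bp had 373, 377 and 358 normalized reads in Tg197 libraries, against 289, 316 and 285 in WT libraries, with 0.32 as the log2 fold change in the authors' deposited table. At 11 weeks the region at -657.5 bp had 108, 90.2 and 89.6 normalized reads in Tg197 libraries, against 152, 133 and 137 in WT libraries, with -0.55 in the authors' deposited table. The regions share 100 bp, so they are largely different sequence, and the difference between the ages was not tested.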

How the results depend on the processing

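Taking direction from the authors' enrichment columns, chosen after seeing the data, gave 52 higher members over all tables in place of 32. That total was not counted for all listed promoter regions. With pseudocount 5, and with a mean of at least 50 normalized reads, which removed 0 regions, all 72 member regions kept their direction and their side of the limma threshold. Scaling each library to its median over listed regions turned the members' median log2 change to 0.12 at 3 weeks, 0.22 at 8 weeks and 0.10 with TNF, raised it to 0.56 at 11 weeks, and gave 2 calls at 3 weeks and 6 at 8 weeks, all of them rises, where the authors' scaling gave 7 falls and 0 calls. The median of all listed regions moved to -0.04, -0.15, -0.26 and -0.07 at 3, 8 and 11 weeks and with TNF. Under this scaling 23 single regions no longer kept their direction, though some moved only to about 0. Among them at 3 weeks were Rpl11 (0.12), Rps16 (0.19) and Rpl4 (0.00). At 8 weeks they included Rpl27 (0.37), Rps7 (0.07), Rps10, Rps14 and Rpl14 (0.22 each), and Rps18 and Rplp1 (0.04 each). Also at 8 weeks were Rps21 (0.08), Rplp0 at -2324.5 bp (0.09) and Rpl13a (0.27). At 11 weeks Rpl23a (0.28) and Rpl3 (0.09) were among them. With TNF they included Rpl35a (0.04), Rpl10a (0.06), Rps14 (0.00), Rps21 (0.11), Rps27 and Rpl14 (0.01 each) and Rplp1 (0.13). Scaling by listed regions up to 1 kb from a TSS gave medians of -0.88 at 3 weeks and 0.07 at 11 weeks and 5 calls at 8 weeks, all falls, and turned Rpl27 (-0.02), Rps2 (-0.06), Rps10 (-0.25) and Rps27l (-0.04) at 3 weeks and Rpl27a (-0.02) at 11 weeks. Voom turned Rpl27 at 8 weeks to 0.05 and gave a median of -0.14 with TNF. Without the variance trend the calls were 7 at 11 weeks and 0 with TNF, beside 94.4% and 0.0% of all listed regions. Fitting promoter regions alone gave 12 calls at 8 weeks and 17 with TNF, beside 70.6% and 74.0% of promoter regions called. The proximal class alone held 0 calls among 2 members at 3 weeks, 1 among 4 at 11 weeks and 3 among 3 with TNF. Of all listed regions 93.6%, 97.3% and 59.1% were called there. At the authors' adjusted p of 0.001, 8 members passed at 8 weeks, and the share of all listed regions past it was not counted. Leaving out each library gave from 0 to 9 calls at 3 weeks (2, 4 and 0 without WT a, b and c), 0 to 13 at 8 weeks, 8 to 11 at 11 weeks and 0 to 23 with TNF. In the same fits and order 0.0% to 98.5%, 0.0% to 87.7%, 93.1% to 95.2% and 0.0% to 89.9% of all listed regions were called. The members' medians ran from -0.61 to -0.44, -0.71 to -0.26, 0.17 to 0.23 and -0.50 to -0.27. The causes were not tested. The edgeR test was not run. No paired analysis was possible because no replicate number is attached to the 3 values of a group. With 3 libraries per group and only differing regions listed, no unchanged region could be used to check the scaling.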
